A study of Mus musculus with 11 samples.

Results

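Genes that sense RNA without a finished cap, pass the signal on or act on its target RNA were followed in mouse embryonic stem cells (ESCs) treated with siRNAs against CMTR1. The 9 genes were Ifih1, Ddx58, Eif2ak2, Mavs, Irf3, Ifit1, Ifit2, Isg15 and Adar. They were taken by name and matched to 9 Ensembl identifiers among the 54838 genes in the count files. A gene was tested where it exceeded 1 count per 1000000 counted reads (CPM) in at least 4 libraries. Of the 9 genes, 6 passed this filter, among 16073 genes tested in all, and Ifih1, Ifit1 and Isg15 did not.

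RNA polymerase II transcripts receive a methylated guanosine cap, and CMTR1 then methylates the ribose of the first transcribed nucleotide (N1 2′-O-Me). RNA whose cap lacks this ribose methyl group can be bound by IFIT proteins and by the RNA helicase RIG-I, and is treated by the cell as foreign. Helicases of this family signal through the mitochondrial adaptor MAVS to the transcription factor IRF3, which switches on type I interferon genes. Interferon then induces a large set of antiviral genes, which include the sensors themselves. ESCs are known for a weak interferon response compared with differentiated cells.

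RNA-seq was performed on rRNA-depleted total RNA of the E14 ESC line, grown on gelatin with LIF. Control cells received a scramble siRNA (3 libraries), and the others received CMTR1 siRNA 1 (4 libraries) or CMTR1 siRNA 2 (4 libraries), each for 36 h. All groups were therefore transfected with an siRNA and share one cell line, and no untransfected library was analysed here. The labels number the libraries but do not say whether they came from separate cultures, and the study's methods speak of biological replicates in a number other than that of the siRNA libraries. The p-values therefore measure the spread between these libraries, which may be technical. Both siRNA groups were compared with the same 3 control libraries.

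Each library held 6738478 to 8382318 reads counted in genes. The ESC markers Pou5f1, Sox2 and Nanog were present in every library, at no less than 419, 180 and 47.3 CPM. The summed level of 10 ESC markers was 2059 to 2191 CPM in control libraries, 1747 to 1953 CPM with siRNA 1 and 1845 to 1928 CPM with siRNA 2. In the test described below, 7 and 5 of the 10 were called lower with siRNA 1 and siRNA 2. Over all tested genes, 4.67% and 9.72% were called in either direction. The summed level of 8 macrophage and blood markers was 7.92 to 13.3 CPM over all libraries, most of it Cd68 (6.87 to 12.1 CPM). Fcer1g reached 1.21 CPM and Itgam 0.954 CPM, and Tyrobp had no read. In bulk RNA, fewer cells of a kind and less RNA per cell cannot be told apart.

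The targeted gene, Cmtr1, was measured at 21.3, 21.7 and 17.9 CPM in the control libraries, at 21.1, 21.3, 16.2 and 18.04 CPM with siRNA 1, and at 15.6, 16.8, 16.4 and 19.5 CPM with siRNA 2. The groups overlapped. The log2 fold change for siRNA 1 was -0.09 (SE 0.11), and for siRNA 2 it was -0.25 (SE 0.11). Neither passed the threshold of 0.05 in edgeR's quasi-likelihood test (adjusted p = 0.743 and 0.144), where p-values were adjusted over all tested genes by the Benjamini-Hochberg method. At the RNA level these libraries therefore do not check their labels, and the groups below are named by label.

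Interferon acts on many of its target genes through a promoter element that is read as 2 GAAA blocks spaced by 2 bases. This element was searched as GAAANNGAAA, or TTTCNNTTTC on the other strand, from 250 bases before to 50 bases after each RefSeq start site (GRCm38.p6). It was present in at least one window of 5 of the 9 genes and of 1079 of 27025 genes with a window (3.99%). The sites are shown because they mark which of the 9 genes carry the interferon element near their start, and the change of those genes is given further on. Capitals mark the matched letters, and each stretch is written along the strand of its gene.
Ifih1, chr2:62646206-62646235, minus strand: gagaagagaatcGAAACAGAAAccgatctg
Ddx58, chr4:40239804-40239833, minus strand: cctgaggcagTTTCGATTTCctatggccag
Eif2ak2, chr17:78882535-78882564, minus strand: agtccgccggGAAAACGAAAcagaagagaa
Ifit1, chr19:34640775-34640804, plus strand: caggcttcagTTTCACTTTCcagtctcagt
Ifit1, chr19:34640794-34640823, plus strand: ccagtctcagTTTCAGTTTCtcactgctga
Isg15, chr4:156200871-156200900, minus strand: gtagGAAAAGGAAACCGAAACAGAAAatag
The Isg15 stretch holds 3 overlapping matches, at bases -78 to -57 from its start site. No match lay in the windows of Mavs, Ifit2, Irf3 or Adar. Among the other interferon-stimulated effector genes described below, 21 of 41 with a window held a match (51.2%). A match is a description of the letters and not a measured binding site.

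The 9 genes spanned a wide range of levels. To compare genes, CPM was divided by the length of each gene's merged exons in kilobases. Over the 11 libraries the mean was 12.7 ± 0.516 CPM per kb for Adar (SD, n = 11), 6.04 ± 0.574 for Mavs, 5.86 ± 0.434 for Eif2ak2, 5.81 ± 0.714 for Irf3 and 4.56 ± 0.322 for Ddx58. Adar stood at percentile 73.6 of all tested genes and Ddx58 at percentile 48.7, so these 5 genes lay in the middle or upper part of the ESC transcriptome.

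The remaining genes were much lower. Ifit2 averaged 0.663 ± 0.152 CPM per kb (SD, n = 11), at percentile 12.2 of the tested genes. The 3 genes under the filter averaged 0.280 ± 0.191 for Isg15, 0.106 ± 0.0703 for Ifit1 and 0.0660 ± 0.0314 for Ifih1. In this order, the ranges over libraries were apart only between Adar and Mavs and between Ddx58 and Ifit2, and every other pair of neighbours overlapped.

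**Figure D1:**
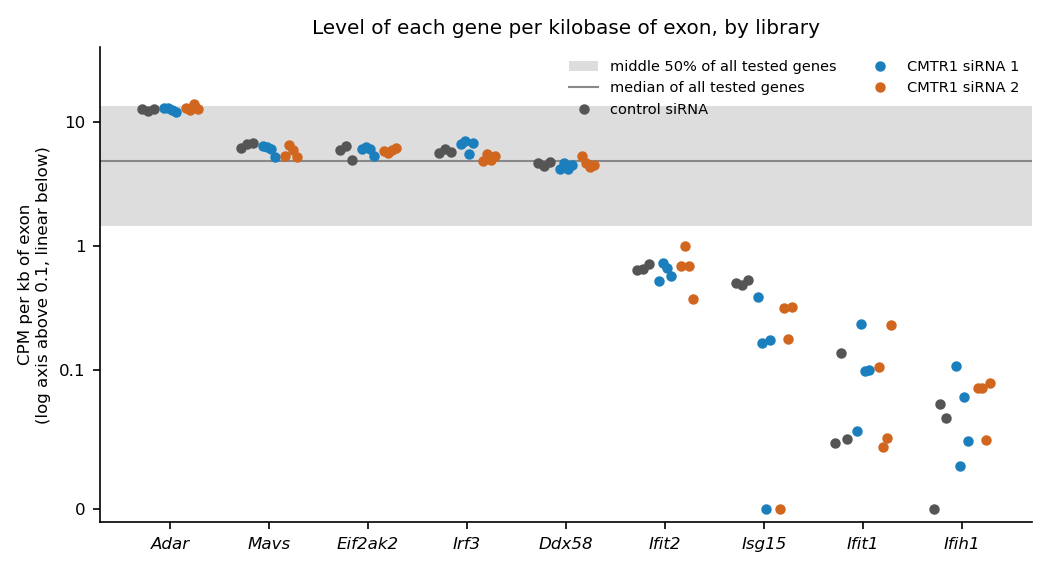
Level of each of the 9 genes in each of the 11 libraries, as CPM per kilobase of exon, on an axis that is logarithmic above 0.1 and linear below. Points are libraries coloured by siRNA group, the grey band covers the middle 50% of all tested genes and the line their median. Adar is highest at 12.7 CPM per kb on average, the next 4 genes lie near the median, and Isg15, Ifit1 and Ifih1 lie near 0.

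The sensors were considered first. Ddx58 encodes RIG-I, the helicase that binds triphosphate and incompletely methylated RNA ends. It was measured at 32.6, 31.1 and 33.8 CPM in control libraries, at 29.2, 33.2, 29.3 and 31.7 CPM with siRNA 1, and at 37.2, 33.0, 30.3 and 31.9 CPM with siRNA 2. The 3 groups overlapped. The log2 fold change against control was -0.07 with siRNA 1 (95% interval -0.24 to 0.09) and 0.03 with siRNA 2 (-0.14 to 0.19), and neither passed edgeR's quasi-likelihood test (adjusted p = 0.724 and 0.892).

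Eif2ak2 encodes PKR, the kinase that binds double-stranded RNA and phosphorylates the translation factor eIF2α. Its level was 30.2, 32.9 and 25.2 CPM in control libraries, 30.7, 31.9, 31.0 and 27.3 CPM with siRNA 1, and 29.5, 28.8, 30.5 and 31.6 CPM with siRNA 2. All siRNA libraries lay within the range of the controls. Fold changes were 1.02 with siRNA 1 (95% interval 0.908 to 1.16) and 1.02 with siRNA 2 (0.904 to 1.15), with adjusted p = 0.893 and 0.892 in edgeR's quasi-likelihood test.

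Ifih1 encodes MDA5, the helicase that forms filaments on long double-stranded RNA and, like RIG-I, signals through MAVS. It received 0, 5 and 4 reads in the control libraries, 6, 2, 5 and 3 reads with siRNA 1, and 5, 6, 3 and 6 reads with siRNA 2. The first control library was the only one with no read, and a count of 0 there allows up to about 0.381 CPM. The groups overlapped. As a ratio of pooled CPM, siRNA 1 over control was 1.40, with an exact binomial 95% interval of 0.581 to 3.58, and siRNA 2 over control was 1.68 (0.732 to 4.195). These intervals cover counting error only, and a difference smaller than these bounds was not detectable at this depth.

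The adaptor and the transcription factor followed. Mavs, the mitochondrial adaptor on which RIG-I and MDA5 converge, was measured at 20.6, 22.2 and 22.5 CPM in control libraries, at 21.2, 21.2, 20.3 and 17.4 CPM with siRNA 1, and at 17.8, 21.95, 19.95 and 17.3 CPM with siRNA 2. Both siRNA groups had lower means than the control group, and both overlapped it. The log2 fold changes were -0.12 for siRNA 1 and -0.17 for siRNA 2 (SE 0.10 each), and edgeR's quasi-likelihood test gave adjusted p = 0.600 and 0.297. For the mean of both siRNAs it was -0.15 (95% interval -0.32 to 0.03, edgeR adjusted p = 0.366).

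Irf3 encodes the transcription factor that is phosphorylated downstream of MAVS and enters the nucleus to induce interferon genes. It was measured at 19.4, 20.7 and 19.8 CPM in control libraries, at 23.0, 23.9, 19.0 and 23.1 CPM with siRNA 1, and at 16.8, 18.8, 16.9 and 18.4 CPM with siRNA 2. With siRNA 1, 3 of 4 libraries lay above all controls and the other below them, and with siRNA 2 all 4 lay below all controls. Against control, log2 fold changes of 0.16 for siRNA 1 and -0.17 for siRNA 2 (SE 0.10 each) had adjusted p = 0.432 and 0.308 in edgeR's quasi-likelihood test.

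The direct comparison of the siRNAs did differ for Irf3. All 4 siRNA 2 libraries lay below all 4 siRNA 1 libraries, and the log2 fold change of siRNA 2 against siRNA 1 was -0.33 (SE 0.09, 95% interval -0.51 to -0.14, adjusted p = 0.0196 in edgeR's quasi-likelihood test). Of the 6 tested genes this was the only call in this comparison, beside 7.44% of all tested genes. The call was lost when siRNA 1 replicate 1, 2 or 4 or siRNA 2 replicate 1 was left out (edgeR adjusted p = 0.0577, 0.0929, 0.0581 and 0.0662), and with DESeq2 (adjusted p = 0.0514). Over the mean of both siRNAs the level of Irf3 was 19.99 CPM against 19.98 CPM in control. Irf3 shares 88 bases of exon, 2.56% of its length, with Bcl2l12 on the opposite strand. Bcl2l12 gave a log2 fold change of -0.09 for siRNA 2 against siRNA 1 (edgeR adjusted p = 0.668). The effect of this overlap on the Irf3 count was not tested.

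**Figure D2:**
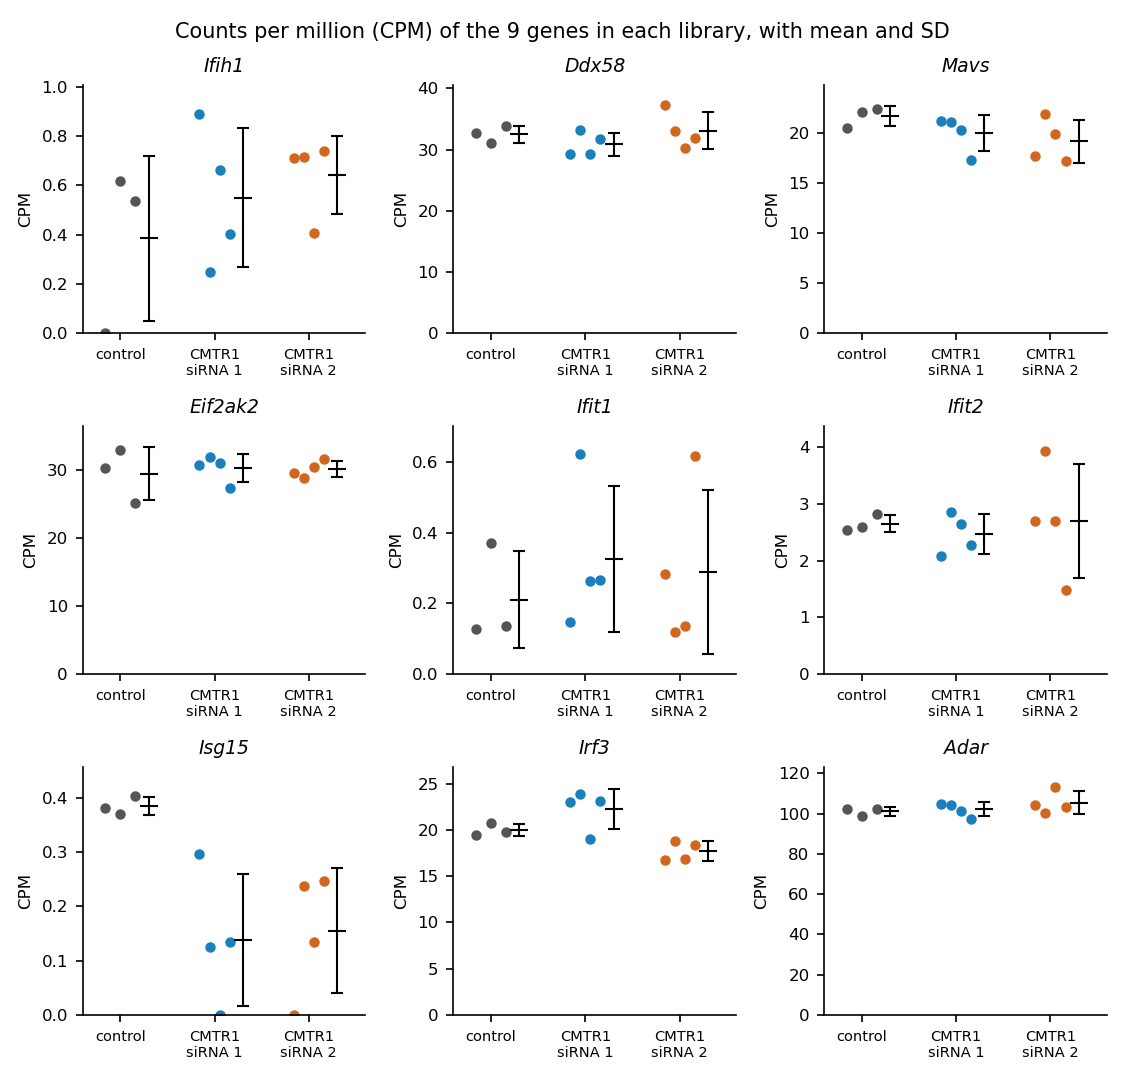
CPM of each of the 9 genes in every library, in panels with separate axes that start at 0. Points are libraries, and the bar beside each group gives its mean and SD (n = 3 control, 4 siRNA 1, 4 siRNA 2). Irf3 with siRNA 2 (16.8 to 18.8 CPM) lies below siRNA 1 (19.0 to 23.9 CPM), Isg15 is highest in the 3 controls at 3 reads each, and the groups of the other genes overlap.

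The interferon-induced effectors Ifit2, Ifit1 and Isg15 were measured by few reads in every library. Ifit2, whose protein binds RNA and restrains translation of viral messages, received 20, 21 and 21 reads in control libraries, 14, 23, 20 and 17 reads with siRNA 1, and 19, 33, 20 and 12 reads with siRNA 2. Its mean level was 2.65 ± 0.153 CPM in control libraries (SD, n = 3), 2.46 ± 0.356 CPM with siRNA 1 (n = 4) and 2.70 ± 1.00 CPM with siRNA 2 (n = 4). The siRNA 2 libraries spread on both sides of the controls. The fold change was 0.937 with siRNA 1 (95% interval 0.649 to 1.35) and 1.02 with siRNA 2 (0.716 to 1.47), and neither passed edgeR's quasi-likelihood test (adjusted p = 0.906 and 0.957).

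Ifit1 encodes the protein that binds caps without the ribose methyl group most directly. It received 1, 3 and 1 reads in control libraries, 1, 5, 2 and 2 reads with siRNA 1, and 2, 1, 1 and 5 reads with siRNA 2, or 24 reads in all. The groups overlapped. The ratio of pooled CPM to control was 1.57 with siRNA 1 (exact binomial 95% interval 0.489 to 5.86) and 1.36 with siRNA 2 (0.410 to 5.17). The upper bound of the pooled Ifit1 level in either siRNA group was 0.617 CPM (exact Poisson 95% interval). Of the 75-base words in its exons, 5.19% also occur in Ifit1bl2, so reads from these words cannot be told apart between the 2 genes.

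Isg15, a ubiquitin-like protein that is attached to other proteins after interferon treatment, received 3, 3 and 3 reads in control libraries, 2, 1, 0 and 1 reads with siRNA 1, and 0, 2, 1 and 2 reads with siRNA 2. Each control library lay above every siRNA library in CPM. The difference was 3 reads or fewer per library. The ratio of pooled CPM to control was 0.349 with siRNA 1 (exact binomial 95% interval 0.0785 to 1.25), 0.420 with siRNA 2 (0.111 to 1.40) and 0.385 for both together (0.135 to 1.10), and each interval includes 1. Exact two-sided permutation tests of mean CPM gave p = 0.0571 for either siRNA, the smallest that 3 against 4 libraries can give, and p = 0.0121 for both siRNAs together, the smallest that 3 against 8 can give. These are unadjusted values among 36 such tests made on the 9 genes. In a fit of 22625 genes with at least 10 reads in total, edgeR's quasi-likelihood test gave Isg15 a log2 fold change of -1.29 for the mean of both siRNAs (95% interval -2.68 to 0.10) with adjusted p = 0.368.

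In that same fit of more genes, Ifih1 gave log2 fold changes of 0.47 and 0.73 with siRNA 1 and siRNA 2, and Ifit1 gave 0.61 and 0.42. Their intervals spanned 0, from -0.77 to 1.70 and -0.46 to 1.91 for Ifih1 and from -0.96 to 2.18 and -1.19 to 2.02 for Ifit1. The edgeR adjusted p was 0.832 and 0.564 for Ifih1 and 0.823 and 0.852 for Ifit1. These libraries therefore held too few reads of the 3 low genes to bound a change within 2-fold.

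Adar encodes the enzyme that deaminates adenosine in double-stranded RNA, which keeps the cell's own RNA from activating MDA5. It was the most abundant of the 9 genes, at 102.2, 98.8 and 102.4 CPM in control libraries, 105.1, 104.6, 101.4 and 97.6 CPM with siRNA 1, and 104.3, 100.6, 113.5 and 103.5 CPM with siRNA 2. The groups overlapped, and the third siRNA 2 library was the highest. The fold change was 1.01 with siRNA 1 (95% interval 0.936 to 1.09) and 1.04 with siRNA 2 (0.966 to 1.12), with adjusted p = 0.935 and 0.549 in edgeR's quasi-likelihood test. With 708 to 843 reads per library, its intervals were the narrowest of the tested genes among the 9. Its exons share 1365 bases (16.8%) with Chrnb2 on the opposite strand, and Chrnb2 had 361 reads over all libraries. The study's methods name a directional kit for the RNA-seq libraries. The strand setting of the counting is not given in the sources used here, and the effect of this overlap on the Adar count was not tested.

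Adar also varied little over the libraries. The SD of its log2 CPM over 11 libraries was 0.06, at percentile 11.7 among 1752 genes of like level. The genes with the most similar pattern, among 11913 with a mean log2 CPM of at least 2, were Platr20 (Pearson r = 0.88), Abcd4 (0.87), Tchp (0.86), Ehmt1 (0.85) and Brpf1 (0.84), as a description over the 11 libraries. The other tested genes of the 9 above that level had r with Adar from -0.42 for Irf3 to 0.19 for Eif2ak2. All these values share library depth and preparation.

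**Figure D3:**
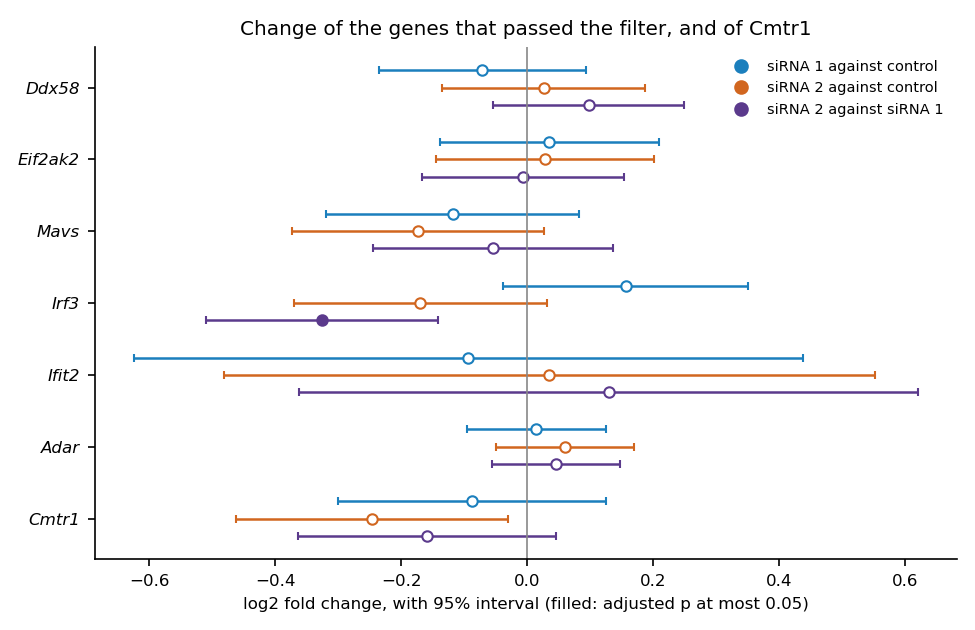
Log2 fold change with its 95% interval for the 6 genes that passed the filter and for Cmtr1, for siRNA 1 against control, siRNA 2 against control and siRNA 2 against siRNA 1. Filled points have adjusted p of at most 0.05 in edgeR's quasi-likelihood test. The only filled point is Irf3 in siRNA 2 against siRNA 1 (-0.33), and Ifit2 has the widest intervals.

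Counted together, 0 of the 6 tested genes passed edgeR's quasi-likelihood test with siRNA 1, with siRNA 2 or for the mean of both against control. The background was 4.67%, 9.72% and 6.91% of the 16073 tested genes in these comparisons. None of the 6 had an unadjusted p under 0.05 in any of the 3 comparisons, beside 16.8%, 23.2% and 19.7% of the tested genes. DESeq2 also called 0 of them in each, but it gave Ifit2 no adjusted p in these comparisons. With edgeR's exact test, 0 of the 6 were called for each siRNA. The median log2 fold change of the 6 genes was -0.03, 0.03 and -0.01, beside 0.02, 0.03 and 0.02 over all tested genes. Ddx58 and Eif2ak2, the 2 tested genes with an interferon element in their window, lay between -0.07 and 0.03 against control.

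Groups whose libraries did not overlap were also counted. With siRNA 1 this held for 1 of the 9 genes (Isg15), beside 12.9% of the 22625 genes with at least 10 reads and 15.5% of the 16073 tested genes. With siRNA 2 it held for 2 of 9 (Isg15 and Irf3), beside 16% and 19.4%. For both siRNAs together it held for Isg15, beside 4.83% and 6.23%, and between the siRNAs for Irf3, beside 9.55% and 11.8%.

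The rest of the pathway was described by 7 lists of 146 genes in all, of which 100 passed the filter. In these lists 4 of 100 genes passed edgeR's quasi-likelihood test with siRNA 1 (3 higher, 1 lower), 10 with siRNA 2 (8 higher, 2 lower), 5 for the mean of both and 10 between the siRNAs. Over all tested genes the shares were 4.67%, 9.72%, 6.91% and 7.44%, so that the lists were called about as often as the rest of the transcriptome in each comparison. The counts for siRNA 2, for the mean and between the siRNAs include Adad1, which passed the filter only through the siRNA 2 libraries.

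The interferon genes themselves had almost no counted reads. Of 20 ligand genes, among them Ifnb1, the interferon first made after IRF3 activation, and Ifna2, 19 had no read in any library. A count of 0 over all 84167944 counted reads allows a level of up to 0.0356 CPM. The exception was Ifna14, with 2 reads, both in siRNA 2 libraries.

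Receptors and signal carriers were present. Ifnar1, a chain of the type I interferon receptor, averaged 55.1 CPM in control, 58.2 CPM with siRNA 1 and 59.6 CPM with siRNA 2, and Tyk2, the kinase attached to it, 48.9, 49.4 and 44.6 CPM. Neither passed the test against control, and nor did Socs3, a feedback inhibitor of cytokine signalling, at 78.5, 84.9 and 81.3 CPM. Jak2, a kinase of the interferon gamma receptor and other cytokine receptors, was at 9.14, 9.004 and 8.08 CPM in control, 10.7, 10.97, 11.9 and 13.9 CPM with siRNA 1, and 10.5, 13.1, 12.9 and 12.7 CPM with siRNA 2. All siRNA libraries lay above all controls. Jak2 rose with both siRNAs, by a log2 fold change of 0.44 (SE 0.13) and 0.50 (SE 0.13), with adjusted p = 0.0459 and 0.0108 in edgeR's quasi-likelihood test.

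The Jak2 call for siRNA 1 was lost on leaving out any 1 control library or siRNA 1 replicate 2, 3 or 4 (edgeR adjusted p = 0.0609 to 0.185), and also with library sizes scaled by TMM factors (0.0574), a looser filter of 10 reads in all libraries together (0.0507), the replicate number as a block (0.101) and DESeq2 (0.139). The call for siRNA 2 was lost on leaving out control replicate 3 (0.0721) and with DESeq2 (0.0501). Stat2, which carries the interferon signal to the promoter element shown above, was lower with siRNA 2 (26.7 ± 3.02 CPM in control, n = 3, 21.5 ± 2.94 CPM, n = 4, log2 fold change -0.31, edgeR quasi-likelihood adjusted p = 0.0323), but its libraries overlapped. This call was lost without control replicate 2 or 3 or siRNA 2 replicate 1 or 2 (0.0674 to 0.179).

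Among signalling kinases and transcription factors, 2 of 19 tested genes (10.5%) rose with siRNA 1 and none fell, beside 4.67% of all tested genes called. Traf6, a ubiquitin ligase that relays Toll-like receptor and MAVS signals, was at 28.7, 29.6 and 26.1 CPM in control, 35.9, 36.6, 40.8 and 35.02 CPM with siRNA 1, and 40.6, 37.0, 37.5 and 36.8 CPM with siRNA 2. All siRNA libraries lay above all controls, and the log2 fold changes were 0.40 and 0.43 (SE 0.08 each, edgeR quasi-likelihood adjusted p = 0.00111 and 0.00022). This call was kept with every library left out in turn and in each of the 8 other settings tried.

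Traf3, a ubiquitin ligase that links MAVS to the kinases of IRF3, was at 38.5, 36.0 and 33.2 CPM in control, 43.2, 41.4, 44.1 and 43.0 CPM with siRNA 1, and 37.8, 44.3, 48.0 and 44.5 CPM with siRNA 2. It rose by a log2 fold change of 0.26 (SE 0.08) and 0.28 (SE 0.08), with adjusted p = 0.0424 and 0.0127 in edgeR's quasi-likelihood test. One siRNA 2 library lay within the control range. The siRNA 1 call was lost without control replicate 2 or 3 or any 1 of the siRNA 1 libraries (0.0661 to 0.231), and with TMM factors (0.0621), the filter of 10 reads (0.0506), the replicate block (0.0605) and DESeq2 (0.135). The siRNA 2 call was lost without control replicate 3 (0.112) and with DESeq2 (0.0609). Traf3, Traf6 and Jak2 were the 3 list genes called higher with both siRNAs, beside 1.26% of all tested genes, and siRNA 1 and siRNA 2 share the control libraries.

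With siRNA 2, 4 of the 19 tested genes of this list rose and 1 fell (26.3% called), beside 9.72% of all tested genes called. Besides Traf3 and Traf6, Chuk (IKKα) rose from 77.6 ± 4.51 to 90.8 ± 4.40 CPM (log2 fold change 0.23, edgeR quasi-likelihood adjusted p = 0.0107, lost without control replicate 1 at 0.0868 and with DESeq2 at 0.0555). Tbkbp1, an adaptor of the IRF3 kinase TBK1, rose from 15.1 ± 1.61 to 18.8 ± 2.27 CPM (0.33, adjusted p = 0.0490). That call was lost without control replicate 2 or 3, siRNA 1 replicate 2 or 4 or siRNA 2 replicate 2, 3 or 4 (0.0553 to 0.214), and in 6 of 8 other settings, with TMM factors (0.0720), library sizes without the abundant RNA Gm26917 (0.0558), the filter of 10 reads (0.0568), only the groups compared (0.0553), the replicate block (0.0648) and DESeq2 (0.167). Nfkb1, a subunit of NF-κB, fell from 64.6 ± 4.59 to 53.6 ± 3.11 CPM, with all 4 siRNA 2 libraries below all controls (-0.27, adjusted p = 0.00797, lost without control replicate 2 at 0.113). Irf1 (51.8, 50.8 and 49.7 CPM in control, siRNA 1 and siRNA 2) and Tomm70a, a mitochondrial receptor that binds MAVS (345, 341 and 342 CPM), did not pass.

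Other sensors and adaptors included 2 of 14 tested genes (14.3%) that rose with siRNA 2, beside 9.72% of all tested genes called. Cgas, the cytosolic DNA sensor, was at 1.52, 1.97 and 3.23 CPM in control, 2.23, 2.12, 2.64 and 2.00 CPM with siRNA 1, and 3.84, 3.82, 3.77 and 3.70 CPM with siRNA 2. It rose with siRNA 2 by 0.76 on the log2 scale against control (SE 0.24) and by 0.75 against siRNA 1 (SE 0.22), with adjusted p = 0.0324 and 0.0276 in edgeR's quasi-likelihood test. All siRNA 2 libraries lay above all others, but Cgas had only 236 reads in all. The call against control was lost without control replicate 1 or 2 or siRNA 2 replicate 1 or 2 (0.0588 to 0.195). DESeq2 called 0 of the 14 genes of this list with siRNA 2 against control, but it gave Cgas no adjusted p in that comparison. The call against siRNA 1 was lost without siRNA 1 replicate 1, 2 or 4 or siRNA 2 replicate 1, 2 or 4 (0.0505 to 0.0824) and with DESeq2 (0.107).

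Zcchc3, a cofactor of cGAS and RIG-I, rose with siRNA 2 from 95.9 ± 1.90 to 109 ± 12.3 CPM (log2 fold change 0.18, edgeR quasi-likelihood adjusted p = 0.0456), but the siRNA 2 libraries, at 124, 114, 97.6 and 101 CPM, overlapped the controls. The call was lost with TMM scaling (0.100), library sizes without Gm26917 (0.0558), only the groups compared (0.0552), edgeR's exact test (0.0513) and DESeq2 (0.185), and without any 1 control library, siRNA 1 replicate 2 or 4 or siRNA 2 replicate 1 or 2 (0.0543 to 0.255). Trim25, the ubiquitin ligase of RIG-I, was at 208, 190 and 201 CPM, and Prkra, the PKR activator, at 8.53, 9.76 and 8.24 CPM in control, siRNA 1 and siRNA 2, and neither passed.

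**Figure D4:**
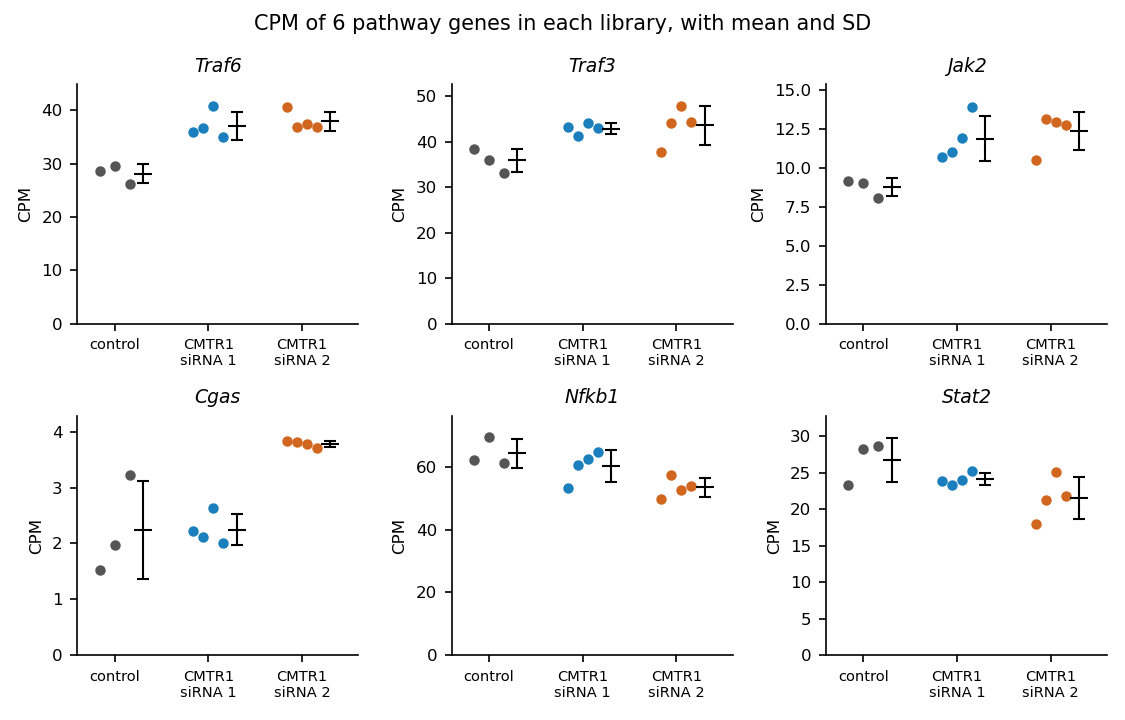
CPM of 6 pathway genes in every library, with axes that start at 0. Points are libraries, and bars give the mean and SD of each group (n = 3, 4 and 4). Traf6 and Jak2 lie above all controls in every siRNA library, Cgas is highest in the siRNA 2 libraries (3.70 to 3.84 CPM), and Nfkb1 and Stat2 have lower means with siRNA 2.

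Interferon-stimulated effectors other than the members above numbered 54, of which 35 were tested. With siRNA 1, 0 rose and 1 fell, and with siRNA 2 edgeR's quasi-likelihood test called 0 of them, beside 4 with an unadjusted p under 0.05 in each comparison. Over all tested genes that test called 4.67% and 9.72%, and 16.8% and 23.2% had an unadjusted p under 0.05. DESeq2 called 1 and 0 of the 35 effectors with siRNA 1 and siRNA 2, and edgeR's exact test called 3 and 0. The gene that fell was Pml, the scaffold of a nuclear body, from 296 ± 17.0 to 266 ± 2.88 CPM (log2 fold change -0.15, edgeR quasi-likelihood adjusted p = 0.0394). Its call was lost without control replicate 2 or 3 or any 1 siRNA 1 library (0.0669 to 0.273) and with the replicate block (0.0597). Apobec3, a deaminase of viral DNA, fell for the mean of both siRNAs (-0.18, edgeR adjusted p = 0.0472), a call that was lost without any 1 control library, siRNA 1 replicate 1 or 2 or siRNA 2 replicate 1 or 2 (0.0634 to 0.217). Ifitm3 and Bst2, membrane proteins that block virus entry and release, were high in all groups (60.4, 58.3 and 59.0 CPM, and 36.2, 38.6 and 40.3 CPM) and did not pass.

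The other 19 effectors were under the filter, and 3 of these had no read. Their summed level was 3.43 to 4.58 CPM in control libraries, 2.91 to 4.28 CPM with siRNA 1 and 3.46 to 5.26 CPM with siRNA 2. The groups overlapped, with means of 3.98 ± 0.575 (n = 3), 3.86 ± 0.642 and 4.14 ± 0.845 CPM (n = 4 each).

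**Figure D5:**
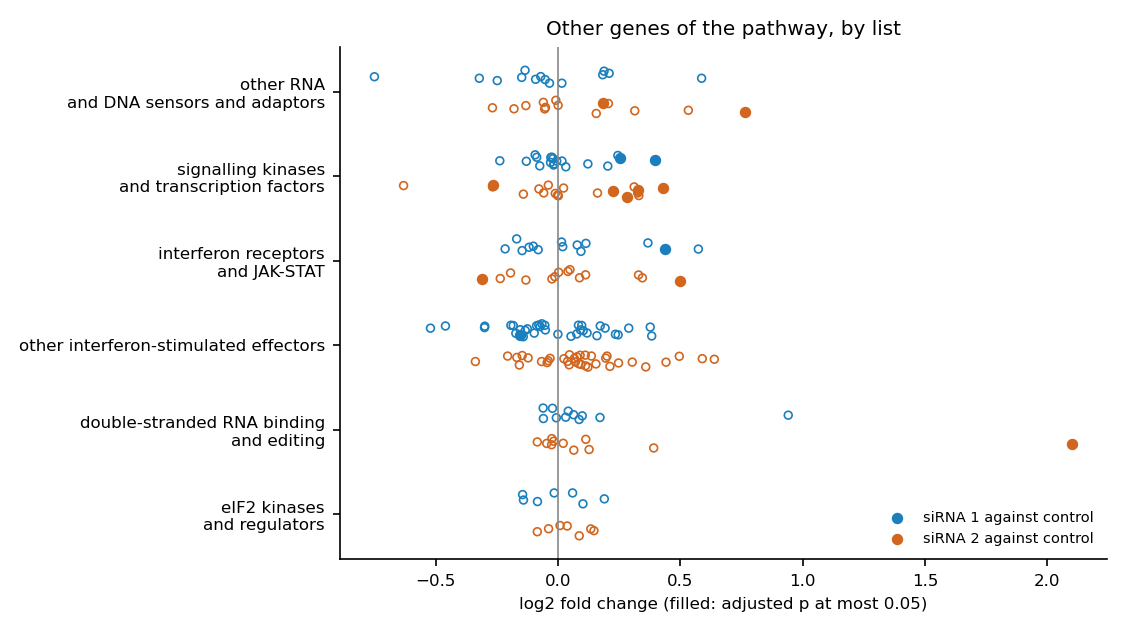
Log2 fold change against control of the pathway genes that passed the filter, 1 point per gene, by list and siRNA. Filled points have adjusted p of at most 0.05 in edgeR's quasi-likelihood test, 4 with siRNA 1 and 10 with siRNA 2 of 100 genes. The interferon ligands are missing because none passed the filter. The point at 2.10 is Adad1, which passed the filter only through the siRNA 2 libraries.

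Of 11 tested genes that bind or edit double-stranded RNA, as Adar does, 1 rose with siRNA 2 and 0 passed edgeR's quasi-likelihood test with siRNA 1. The shares called over all tested genes were 9.72% and 4.67%. For siRNA 1 the unadjusted p was under 0.05 for 1 of the 11, beside 16.8% of all tested genes. DESeq2 and edgeR's exact test called 0 of the 11 with siRNA 1. The gene that rose was Adad1, a testis relative of Adar, which was at 0.127, 0.617 and 0.269 CPM in control, 0.742, 0.623, 0.925 and 0.401 CPM with siRNA 1, and 1.71, 1.07, 1.21 and 2.10 CPM with siRNA 2. The log2 fold change with siRNA 2 was 2.10 (SE 0.47, edgeR quasi-likelihood adjusted p = 0.00208), on 75 reads in all libraries. Adad1 exceeded 1 CPM in the 4 siRNA 2 libraries and in no other, so it passed the filter only through the group in which it was high, and DESeq2 gave this gene no adjusted p against control. Zfr (166, 178 and 181 CPM) and the helicase Dhx9 (687, 676 and 743 CPM) did not pass against control. Of 7 eIF2 kinases and regulators, which act with PKR on translation, 0 passed edgeR's quasi-likelihood test with either siRNA, beside 2 and 1 at an unadjusted p under 0.05, and DESeq2 and edgeR's exact test each called 1 with siRNA 1 and 0 with siRNA 2. Over all tested genes, 4.67% and 9.72% passed the quasi-likelihood test, and 16.8% and 23.2% had an unadjusted p under 0.05. Eif2s1, the substrate of PKR, was at 183, 181 and 188 CPM, Dnajc3, an inhibitor of PKR, at 57.5, 54.1 and 63.0 CPM, and the phosphatase subunit Ppp1r15b at 189, 171 and 190 CPM.

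Between the siRNAs, 9 of the 10 called list genes were higher with siRNA 2. They were Chuk (log2 fold change 0.31), Ripk1 (0.35), Zcchc3 (0.22), Cgas (0.75), Samhd1 (0.24), Adad1 (1.16), Dhx9 (0.14), Dnajc3 (0.22) and Ppp1r15b (0.15), and Ikbkb was lower (-0.26). The edgeR quasi-likelihood adjusted p ran from 0.000181 for Chuk to 0.0431 for Adad1. Chuk and Ikbkb encode the alpha and beta kinases of the same IKK complex, and with siRNA 2 against siRNA 1 the former rose and the latter fell, at 90.8 against 73.1 CPM and 49.3 against 59.1 CPM. Both calls were kept with every library left out in turn.

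The other calls between the siRNAs depended more on single libraries. The Ripk1 call was lost without siRNA 1 replicate 1 or 4 or siRNA 2 replicate 1, 3 or 4 (edgeR adjusted p = 0.0673 to 0.139) and with DESeq2 (0.0711). For Dhx9 it was lost without siRNA 1 replicate 1, 2 or 4 or siRNA 2 replicate 1 or 4 (0.0530 to 0.176) and with DESeq2 (0.0628), and for Dnajc3 without siRNA 1 replicate 1, 2 or 3 or siRNA 2 replicate 1, 2 or 4 (0.0579 to 0.166) and with DESeq2 (0.0922). That of Ppp1r15b was lost without siRNA 1 replicate 1 or 2 or siRNA 2 replicate 1, 2 or 4 (0.0528 to 0.116), and that of Samhd1 without siRNA 2 replicate 1 (0.0583). Adad1, which entered the test only through the siRNA 2 libraries, lost its call without siRNA 1 replicate 1, 2 or 4 or siRNA 2 replicate 1 or 4 (0.0764 to 0.173), with the filter of 10 reads (0.0589) and with the replicate block (0.0510). Zcchc3 lost its call without siRNA 2 replicate 1 (0.108).

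Of the 10 ESC markers, 7 (70%) were called lower with siRNA 1, 5 (50%) with siRNA 2 and 1 (10%) between the siRNAs. Among the 100 tested pathway genes 4, 10 and 10 were called. The shares over all tested genes were 4.67%, 9.72% and 7.44%. Fibroblast markers summed to 39.2 to 48.6 CPM in control, 38.1 to 51.6 CPM with siRNA 1 and 49.2 to 55.1 CPM with siRNA 2. Of the 6 fibroblast markers tested, Col1a1 and Dcn rose and Col3a1 fell with siRNA 2, and Lum and Postn stayed under 1 CPM in every library. Neural markers summed to 176 to 179 CPM in control, 185 to 213 CPM with siRNA 1 and 191 to 221 CPM with siRNA 2, and endoderm markers to 38.2 to 49.8, 36.6 to 46.7 and 37.5 to 42.2 CPM. Of the 6 neural markers tested, Nes was called higher with both siRNAs (log2 fold change 0.26 and 0.45) and Map2 with siRNA 2 (0.36). Pax6, at 0.38 with siRNA 1 and -0.30 with siRNA 2, was not called. Of the 4 endoderm markers tested, 0 were called with either siRNA. The part of these marker lists in the pathway gene differences was not tested.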

How the data were processed

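The authors deposited counts, as whole numbers of reads per Ensembl gene, in 1 file for each of 11 RNA-seq libraries. The study's methods name Cutadapt for trimming, STAR for alignment to GRCm38, Picard for removing duplicates and featureCounts for counting. Summary lines, present in 10 of the 11 files, were left out of library sizes. They hold 5314618 to 6998875 reads outside genes, 137308 to 164565 ambiguous reads and 787556 to 974693 multiply aligned reads in each library. These lines have the layout of HTSeq-count rather than featureCounts, and which tool made the deposited counts was not settled. Duplicate removal limits the count that a short abundant RNA can reach.

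Symbols and exon lengths were taken from GENCODE M21 (GRCm38), which matched 54809 of 54838 identifiers. Genes over 1 CPM in at least 4 libraries (16073) were tested with edgeR 4.0.16 in R 4.3.3 (glmQLFit and glmQLFTest) in one fit of the 3 groups, with library sizes as total counts, and called at a Benjamini-Hochberg adjusted p of at most 0.05. Fold changes are linear ratios from that fit, and CPM was computed from the deposited counts. Exact permutation tests of mean CPM doubled the smaller tail. Intervals for genes under the filter are exact binomial or Poisson intervals at 95% and cover counting error only, and a count of 0 was taken to allow 3 counts.

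The 9 genes, the 7 pathway lists and the marker lists were chosen with earlier results of these data known. Named genes were the 9 genes, Cmtr1, the 3 genes of each pathway list with the highest CPM per kb, every list gene called in any comparison (at most 10 a list) and the 5 genes most like the most abundant of the 9. One further gene that the rule selects from a pathway list is left out of the text. Alternatives were TMM factors, library sizes without the gene Gm26917, DESeq2 1.42.0, edgeR's exact test, filters of 10 reads in all or of 5 CPM, only the groups compared, the replicate number as a block, and each library left out. In simulated counts for siRNA 2 against control (16073 genes), 2-fold changes were recovered for 87 of 100 genes and 1.41-fold changes for 61 of 100. All 15 pairs of libraries within groups differed by more than sampling noise.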

Additional observations from a re-analysis of the deposited data

Results flagged for a closer look

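In 2 of 79 sets of 4 libraries, 1 library stood apart from the others by Dixon's criterion, which chance alone meets in about 1 in 20 groups. Ifih1 was at 0.404 CPM (3 reads) in siRNA 2 replicate 3, against 0.710 to 0.741 CPM (5 or 6 reads) in the other 3 siRNA 2 libraries. Jak2 was at 10.5 CPM in siRNA 2 replicate 1, against 12.7 to 13.1 CPM in the other 3.

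The effects of the 2 siRNAs differed for 11 named genes when tested directly (siRNA 2 against siRNA 1, edgeR's quasi-likelihood test with Benjamini-Hochberg adjustment). Irf3 was lower with siRNA 2 (log2 fold change -0.33, adjusted p = 0.0196), as was Ikbkb (-0.26, adjusted p = 0.00431). Higher with siRNA 2 were Zcchc3 (0.22, adjusted p = 0.0112), Cgas (0.75, 0.0276), Ripk1 (0.35, 0.0307), Chuk (0.31, 0.000181), Samhd1 (0.24, 0.0104), Adad1 (1.16, 0.0431), Dhx9 (0.14, 0.0356), Dnajc3 (0.22, 0.0369) and Ppp1r15b (0.15, 0.0262). In this comparison 7.44% of all tested genes passed, and Adad1 entered the test only through the siRNA 2 libraries. All siRNA 2 libraries lay on one side of all siRNA 1 libraries for Irf3, Ikbkb, Zcchc3, Cgas, Chuk, Adad1, Dhx9 and Ppp1r15b, and the groups overlapped for Ripk1, Samhd1 and Dnajc3.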

How the results depend on the processing

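No setting changed the count of 0 called genes of the 9 against control. Ifit2 had no adjusted p in these comparisons with the filter of 5 CPM or with DESeq2. The 1 call between the siRNAs, Irf3, was 0 with DESeq2 and 0 or 1 with single libraries left out (range 0 to 1). For the pathway lists, the count with siRNA 1 (4) was 2 with the filter of 10 reads, 2 with the replicate block and 8 with edgeR's exact test. With DESeq2 it was 3 for siRNA 2 and 5 between the siRNAs (10 each), and all-gene counts of 1562 and 1196 were 958 and 740. For Cgas and Adad1, DESeq2 gave no adjusted p with siRNA 2 against control. Leaving out 1 library gave list counts of 1 to 5, 5 to 11, 1 to 6 and 3 to 10, and all-gene counts of 355 to 850, 807 to 1667, 499 to 1215 and 724 to 1374, for siRNA 1, siRNA 2, the mean of both and siRNA 2 against siRNA 1. The list count was 1 for siRNA 1 without control replicate 2 or 3 or siRNA 1 replicate 2 or 4 (2 without its replicate 3), 5 for siRNA 2 without control replicate 2, and for the mean 1 without control replicate 3 and 3 without control replicate 2 or siRNA 1 replicate 2. Between the siRNAs it was 3 and 4 without siRNA 2 replicates 1 and 4, and 5 without siRNA 1 replicate 1 or 2. The median log2 fold change of the tested members ran from -0.088 to 0.027 with siRNA 2 and from -0.056 to 0.039 between the siRNAs. The cause was not tested.

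Values near 0 took the other sign, none of them called. With 1 library left out, Eif2ak2 ran from -0.063 to 0.12 with siRNA 1, -0.070 to 0.12 with siRNA 2, -0.066 to 0.12 for the mean and -0.054 to 0.021 between the siRNAs. Ifit2 ran from -0.23 to 0.25 with siRNA 2, -0.16 to 0.077 for the mean and -0.13 to 0.34 between the siRNAs, Ddx58 from -0.031 to 0.063 with siRNA 2 and -0.055 to 0.0051 for the mean, Irf3 from -0.027 to 0.028 for the mean, and Adar from -0.0024 to 0.036 with siRNA 1. Adar with siRNA 1 was -0.0057 with TMM factors and -0.0095 with DESeq2, and Ddx58 with siRNA 2 was -0.0025 with DESeq2. With the replicate block, Ifit2 was 0.031 with siRNA 1 and 0.095 for the mean. Whether the replicate numbers pair the libraries was not settled. Deviations of same-numbered libraries had a mean r of 0.0089 (10 pairs) against -0.0030 for others (30), and 5 of 11 libraries correlated best with their own number. The block moved the all-gene counts to 840, 1486, 1144 and 1242.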
